A study of Homo sapiens with 2 samples.

Results

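The zinc finger genes described here lie in small clusters on chromosomes 3, 7, 8, 12 and 16. With them are 4 genes listed singly from other chromosomes, ZNF300, ZNF334, ZFP3 and ZFP37. Together they are 42 genes listed by name, of 16920 genes that had a probe set of their own on the array. A probe set, which is a group of probes for a short stretch of an exon, was assigned to a gene when that gene was the only one named for it. By this rule 40 of the 42 genes were measured, with 6 to 27 probe sets each and 504 probe sets in all. ZNF251 and ZNF268 had no probe set of their own. The clusters comprised 7 genes on chromosome 3, 6 at 7q11, 7 at 7q36, 5 measured genes on chromosome 8, 5 on chromosome 12 and 6 on chromosome 16.

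Total RNA was profiled on Affymetrix Human Exon arrays from HCT116-DKO, a derivative of the human colorectal cancer line HCT116 in which DNMT1 and DNMT3B are both disrupted, and from its parent HCT116-WT. Both cultures were untreated and grown in the same medium with serum. The study's methods name the DKO1 line, so the genotype is represented by a single derived line. There was 1 array per group, so differences carry no error between cultures and no test was run, and the genotype, the culture and the array cannot be told apart.

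C2H2 zinc finger proteins read DNA through arrays of small zinc-binding folds. Many human members also carry a KRAB domain, which recruits the co-repressor TRIM28 and, with it, the H3K9 methyltransferase SETDB1. Many KRAB proteins silence transposable elements. Their genes have multiplied by tandem duplication, which left them in clusters. The bodies of such genes often carry H3K9me3, and DNMT1 and DNMT3B are enzymes that maintain and set CpG methylation. The question put to these arrays is whether clusters outside chromosome 19 change in transcript level when these enzymes are disrupted.

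All levels are log2 signals, computed per gene by median polish over its probe sets, and each difference is HCT116-DKO minus HCT116-WT. With 2 arrays the difference of a gene equals the median difference of its probe sets. The SD beside a difference is the spread over the probe sets of a gene within this pair of arrays and does not cover variation between cultures. Genes of 286 olfactory receptors served to set the background, taken as their 95th percentile, which was 7.30 in HCT116-DKO and 7.08 in HCT116-WT. To count as risen or fallen, a gene needed 3 or more probe sets, a difference of 1 or more, the same direction in 75% or more of its probe sets, and a level over background in its brighter array. Levels below background have no order. Where the dimmer level was below background, the fold is written as at least N and was taken against the background of the dimmer array. For a rise this is the 7.08 of HCT116-WT, which is lower than the 7.30 of HCT116-DKO.

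The targeted genes were lower in HCT116-DKO. DNMT1 was at 9.36 in HCT116-DKO and 10.63 in HCT116-WT, and DNMT3B was at 6.91 in HCT116-DKO and 8.32 in HCT116-WT. The array medians were 8.37 for HCT116-DKO and 8.28 for HCT116-WT, and the median difference over all 16253 genes with at least 3 probe sets was 0.02. Of 11 measured markers of epithelium and colon, 8 lay above background in both arrays, among them EPCAM, KRT8 and KRT18, whereas VIL1, GPA33 and CDH17 lay above it in neither. Levels of these 11 markers ranged from 4.63 to 13.33 in HCT116-DKO and from 4.75 to 13.02 in HCT116-WT. All 4 measured blood markers and all 4 endothelial markers were below background in both arrays, whereas of 6 fibroblast markers COL1A1, COL1A2 and PDGFRB lay above it in both and COL3A1 in HCT116-WT only. COL1A1 was at 8.64 in each line. None of the markers passed the rule for a change described above, and those below background in both arrays could not be called. Of those above background in both, CLDN4 had the largest difference, 0.91, with 3 of 3 probe sets higher.

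Of the 40 measured zinc finger genes, 6 rose in HCT116-DKO, 1 fell and 33 did not pass the rule. ZNF300, ZNF334 and ZFP3 rose with ZFP37, ZNF140 and ZNF501, and ZNF680 fell. Over all genes tested, 2.66% rose and 0.535% fell by the same rule. All 6 genes that rose had been named as risen in earlier results of these data, which were known when the list was drawn up, so its shares describe the list only. Among the 36 measured cluster genes, 2 rose (5.56%) and 1 fell (2.78%). The median difference was 0.11 over the 40 genes and 0.04 over the 36 cluster genes, beside 0.02 over all genes. It was 0.01 over the 40 genes after quantile normalization, which brought the median of all genes to -0.07.

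Between clusters, the genes with a level above background in at least 1 array were compared by direction. On chromosome 12 these were ZNF84 and ZNF140, both higher in HCT116-DKO, while the other 3 genes were below background in both arrays. On chromosome 3 they were 5 genes, of which 4 were higher, and at 7q11 they were 5 genes, all lower. This entry rule was not neutral to direction, so the counts are description only. ZNF140 and ZNF501 were above background in HCT116-DKO only, and ZNF680, ZNF107 and ZNF138 in HCT116-WT only. Above background in both arrays were 1 gene on chromosome 12, 4 on chromosome 3 and 2 at 7q11. The clusters at 7q36, on chromosome 8 and on chromosome 16 had medians of -0.06, 0.10 and -0.07. Of their 18 genes 17 differed by less than 0.5, as did 14014 of all 16253 genes. The difference between clusters was not tested.

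**Figure D1:**
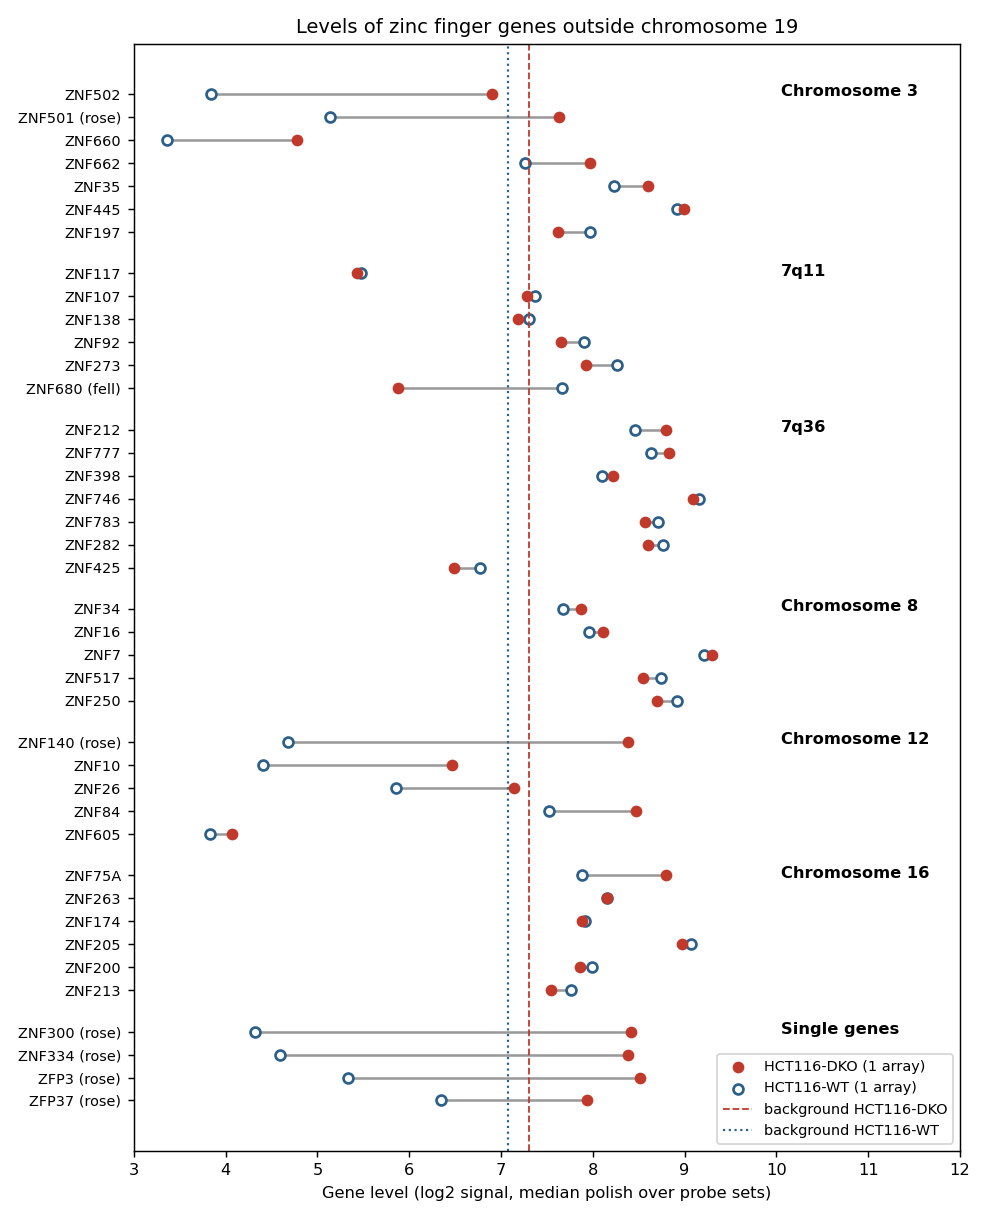
Gene levels (log2 signal, x axis) of the 40 measured zinc finger genes in HCT116-DKO (filled) and HCT116-WT (open), 1 array each, by cluster, with the background of each array as vertical lines. All 6 genes that rose were below background in HCT116-WT, whereas the genes at 7q36 lie almost at the same level in both arrays.

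The promoters of the genes that rose are shown because CpG sites are what DNMT1 and DNMT3B methylate. Sequences are from RefSeq on GRCh38.p14 and run from 250 bases before the annotated start to the base before it, with each CpG in capitals. The arrays measured no methylation, and the start used in these cells is not known from them. The window of ZNF501 is chr3:44729385-44729634 (plus strand) and holds 25 CpG sites, that of ZNF140 is chr12:133080673-133080922 (plus strand) with 25, and that of ZFP3 is chr17:5078217-5078466 (plus strand) with 26. ZNF300 has only 10 in chr5:150904981-150905230 (minus strand), ZNF334 has 18 in chr20:46513560-46513809 (minus strand), and ZFP37 has 24 in chr9:113056725-113056974 (minus strand).
ZNF501: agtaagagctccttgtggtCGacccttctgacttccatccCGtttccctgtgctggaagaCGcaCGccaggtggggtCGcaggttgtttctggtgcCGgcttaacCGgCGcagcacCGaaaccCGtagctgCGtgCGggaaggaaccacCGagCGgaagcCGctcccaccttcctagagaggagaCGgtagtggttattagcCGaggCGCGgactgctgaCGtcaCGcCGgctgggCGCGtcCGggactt
ZNF140: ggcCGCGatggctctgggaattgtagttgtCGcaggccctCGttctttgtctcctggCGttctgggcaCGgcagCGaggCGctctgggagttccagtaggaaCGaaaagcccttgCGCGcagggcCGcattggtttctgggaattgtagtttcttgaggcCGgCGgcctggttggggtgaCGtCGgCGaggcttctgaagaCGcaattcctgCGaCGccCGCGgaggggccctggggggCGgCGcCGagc
ZFP3: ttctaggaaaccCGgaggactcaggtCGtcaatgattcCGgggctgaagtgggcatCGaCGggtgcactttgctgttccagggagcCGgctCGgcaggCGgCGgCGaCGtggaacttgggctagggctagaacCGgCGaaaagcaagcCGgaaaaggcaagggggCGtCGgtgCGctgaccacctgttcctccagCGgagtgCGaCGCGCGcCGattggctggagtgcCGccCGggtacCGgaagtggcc
ZNF300: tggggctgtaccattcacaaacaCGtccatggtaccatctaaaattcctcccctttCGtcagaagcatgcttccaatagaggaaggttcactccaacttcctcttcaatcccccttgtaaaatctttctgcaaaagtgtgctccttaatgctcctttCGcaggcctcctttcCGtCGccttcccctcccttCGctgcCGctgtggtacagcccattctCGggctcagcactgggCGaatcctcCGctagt
ZNF334: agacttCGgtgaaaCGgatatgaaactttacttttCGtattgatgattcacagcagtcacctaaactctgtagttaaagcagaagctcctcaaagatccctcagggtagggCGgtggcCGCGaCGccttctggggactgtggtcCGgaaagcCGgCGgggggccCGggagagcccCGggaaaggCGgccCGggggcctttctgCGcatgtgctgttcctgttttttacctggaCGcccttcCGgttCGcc
ZFP37: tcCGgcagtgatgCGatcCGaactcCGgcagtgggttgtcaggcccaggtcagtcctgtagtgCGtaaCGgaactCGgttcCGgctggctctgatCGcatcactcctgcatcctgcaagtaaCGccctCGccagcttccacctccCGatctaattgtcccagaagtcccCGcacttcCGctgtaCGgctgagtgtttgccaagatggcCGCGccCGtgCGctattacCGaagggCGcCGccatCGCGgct

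For comparison, ZNF680, which fell, has 12 CpG sites in chr7:64563072-64563321 (minus strand). ZNF605, which lies in the same cluster as ZNF140 but was below background in both arrays, has 15 in chr12:132956307-132956556 (minus strand). The other measured genes of that cluster that did not count as risen have more, with 22 in ZNF26, 35 in ZNF84 and 40 in ZNF10.
ZNF680: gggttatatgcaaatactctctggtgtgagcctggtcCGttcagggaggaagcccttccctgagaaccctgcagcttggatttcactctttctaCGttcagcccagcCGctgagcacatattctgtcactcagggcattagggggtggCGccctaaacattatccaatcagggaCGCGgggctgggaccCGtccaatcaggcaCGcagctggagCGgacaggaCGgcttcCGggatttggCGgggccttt
ZNF605: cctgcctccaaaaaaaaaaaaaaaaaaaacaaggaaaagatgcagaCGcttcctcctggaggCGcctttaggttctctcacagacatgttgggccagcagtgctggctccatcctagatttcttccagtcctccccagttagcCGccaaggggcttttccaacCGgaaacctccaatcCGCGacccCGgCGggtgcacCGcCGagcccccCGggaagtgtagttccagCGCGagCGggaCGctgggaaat

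The 6 genes that rose had levels of 7.63 to 8.51 in HCT116-DKO. ZNF300, a KRAB zinc finger gene on chromosome 5, was at 8.42 in HCT116-DKO and 4.31 in HCT116-WT, a difference of 4.10 (SD over probe sets 1.49) and at least 2.52-fold. All 12 of its 12 probe sets were higher by at least 1, and 10 of them lay above background in HCT116-DKO, against 0 in HCT116-WT. Its signal thus appeared along nearly the whole set of probe sets. ZNF334, a KRAB zinc finger gene on chromosome 20, was at 8.38 in HCT116-DKO and 4.60 in HCT116-WT, a difference of 3.79 (SD 1.79) and at least 2.47-fold. Of its 15 probe sets 14 were higher in HCT116-DKO, and 12 of them by at least 1.

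ZNF334 also held a probe set that did not follow the gene. The probe set at place 14 in the order of their IDs was at 11.55 in HCT116-DKO and 11.69 in HCT116-WT, brighter in HCT116-WT than any other probe set of the gene, and the one at place 15 was at 7.25 in HCT116-DKO and 6.98 in HCT116-WT. With the probe set at place 11, these 3 departed from the difference of the gene by 2 or more. The remaining 12 were all higher in HCT116-DKO by at least 1.

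ZFP3, a zinc finger gene on chromosome 17, was at 8.51 in HCT116-DKO and 5.33 in HCT116-WT, a difference of 3.18 (SD 1.42), or at least 2.69-fold. Its first probe set was equally bright in both arrays, at 9.72 in HCT116-DKO and 9.70 in HCT116-WT, while the other 5 were all higher by at least 1. ZFP37, a KRAB zinc finger gene on chromosome 9, was at 7.94 in HCT116-DKO and 6.35 in HCT116-WT, a difference of 1.59 (SD 0.90). This was at least 1.81-fold, and 11 of 13 probe sets were higher. It was the gene nearest the threshold among those that rose, and with odd-numbered probe sets alone (a difference of 0.99) or with levels set to background (0.86) it no longer counted as risen.

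Most neighbours of these 4 single genes did not pass the rule for a change. Of the 24 measured genes that flank them, 3 on each side, 22 did not pass it and 2 rose (8.33%). Over all genes, 2.66% rose. Of the 24, 4 were below background in both arrays and could not be called. In the order of measured genes, both that rose came next to a risen zinc finger gene. Genes not measured may lie between them. GPX3, which encodes a secreted glutathione peroxidase and follows ZNF300, was at 8.80 in HCT116-DKO and 7.01 in HCT116-WT, at least 3.29-fold. Its difference of 1.79 had an SD over probe sets of 1.89. SLC13A3, a dicarboxylate transporter gene next to ZNF334, was at 8.45 in HCT116-DKO and 7.13 in HCT116-WT, 2.49-fold. Its difference was 1.32 (SD 0.92), and its HCT116-WT level was close to the background of 7.08. On the other side, SMIM3 next to ZNF300 was at 9.01 in HCT116-DKO and 9.03 in HCT116-WT. Next to ZNF334, the pseudogene ZNF663P was at 4.60 in HCT116-DKO and 4.02 in HCT116-WT, below background in both. ZFP3 also has a zinc finger gene next to it, ZNF232, at 7.48 in HCT116-DKO and 6.94 in HCT116-WT. ZNF232 was above background in HCT116-DKO only, with 13 of 14 probe sets higher, and did not pass the rule.

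**Figure D2:**
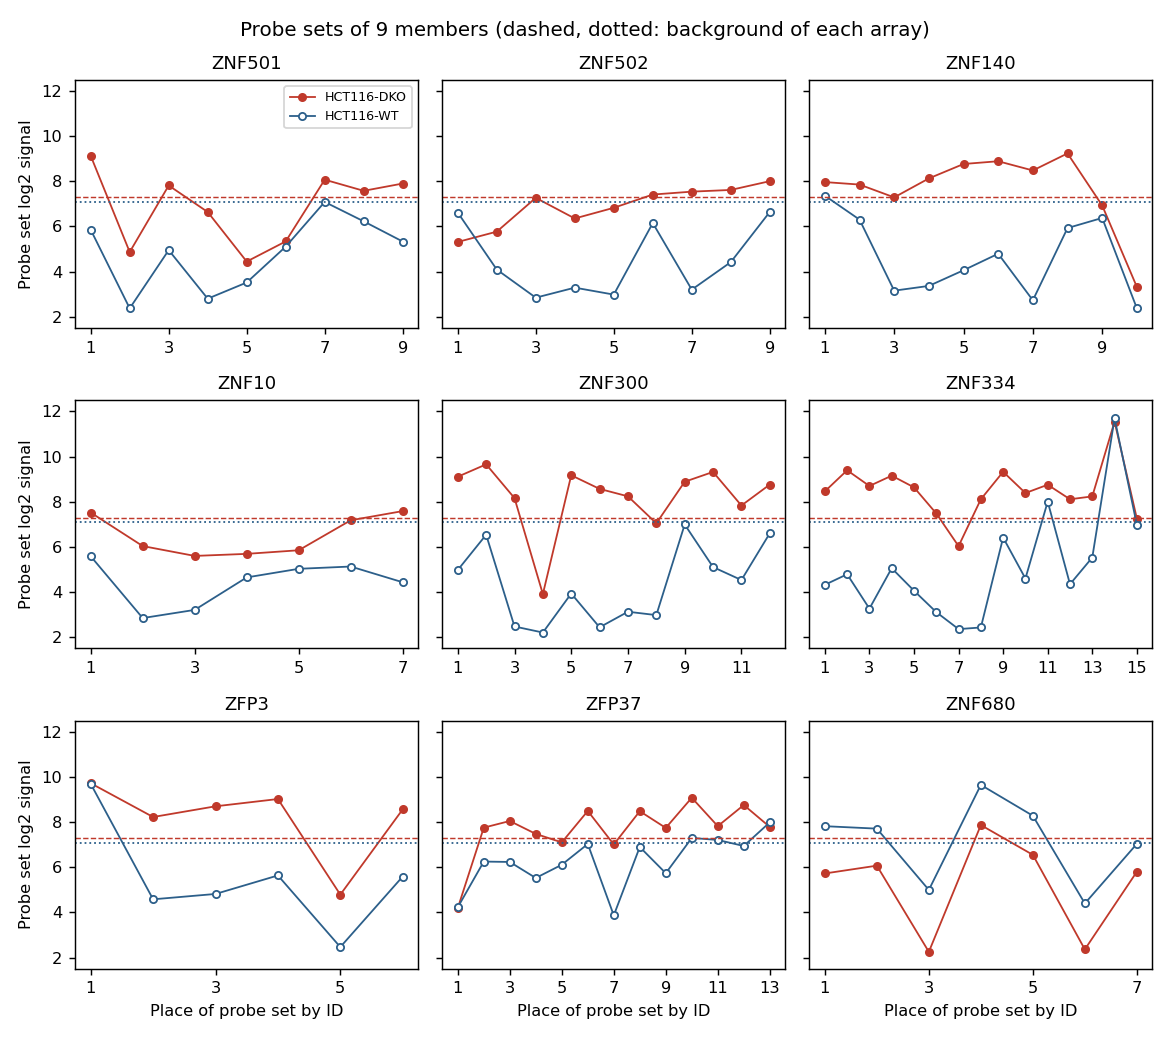
Log2 signal of each probe set (y axis) by its place in the order of probe set IDs (x axis) for 9 zinc finger genes in HCT116-DKO (filled) and HCT116-WT (open), 1 array each, with the background of each array as horizontal lines. The arrays are apart over most of ZNF300 and meet at place 14 of ZNF334 and at place 1 of ZFP3, and ZNF680 is lower in HCT116-DKO at all 7 places.

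On chromosome 12, 1 of the 5 measured genes rose. ZNF140, which encodes a KRAB repressor, rose and was at 8.38 in HCT116-DKO and 4.68 in HCT116-WT, a difference of 3.70 (SD 1.95) and at least 2.47-fold. All 10 of its probe sets were higher, with differences of 0.55 to 5.75. The probe sets at places 3 to 8 differed most, and those at places 1, 9 and 10 by less than 1. At place 7 the signal was 8.48 in HCT116-DKO and 2.73 in HCT116-WT, and at place 1 it was 7.96 in HCT116-DKO and 7.36 in HCT116-WT.

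ZNF10, known as KOX1 and the source of the KRAB domain used in many synthetic repressors, was at 6.46 in HCT116-DKO and 4.41 in HCT116-WT, a difference of 2.05 (SD 0.93). All 7 of its probe sets were higher in HCT116-DKO, but the gene level stayed below background in both arrays, so it did not count as risen and has no fold. ZNF26 was at 7.14 in HCT116-DKO, just under background, and 5.85 in HCT116-WT, with 7 of 9 probe sets higher. ZNF84 was the only gene of this cluster above background in both arrays, at 8.47 in HCT116-DKO and 7.52 in HCT116-WT. Its difference of 0.94 (SD 0.57) came with 13 of 14 probe sets higher and fell just short of the threshold. ZNF605, at the other end of the cluster, was at 4.06 in HCT116-DKO and 3.83 in HCT116-WT, below background in both, with 8 of 15 probe sets higher.

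On chromosome 3, 1 of the 7 genes rose. ZNF501 rose and was at 7.63 in HCT116-DKO and 5.13 in HCT116-WT, a difference of 2.50 (SD 1.23) and at least 1.46-fold. All 9 of its probe sets were higher in HCT116-DKO. With even-numbered probe sets alone (a difference of 1.92), with the mean over probe sets (2.06) or with levels set to background (0.55) ZNF501 no longer counted as risen. ZNF502, its neighbour, was at 6.90 in HCT116-DKO and 3.84 in HCT116-WT and lay below background in both arrays, so its difference of 3.07 (SD 1.86) has no rank beside that of ZNF501. Of its 9 probe sets 8 were higher by at least 1, and the first was lower, at 5.31 in HCT116-DKO and 6.61 in HCT116-WT. ZNF660 was at 4.78 in HCT116-DKO and 3.36 in HCT116-WT, with 5 of 6 probe sets higher and none above background in either array.

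The other chromosome 3 genes were expressed in both lines. ZNF445, a KRAB protein that protects methylation at imprinted loci, was the brightest of them, at 8.99 in HCT116-DKO and 8.91 in HCT116-WT. ZNF35 was at 8.60 in HCT116-DKO and 8.23 in HCT116-WT, and ZNF197, whose protein binds the tumour suppressor VHL, was the only lower gene, at 7.62 in HCT116-DKO and 7.97 in HCT116-WT. ZNF35 and ZNF197, above background in both arrays, lie in the genome between ZNF660 and ZNF502, which were below it in both. ZNF662 was at 7.97 in HCT116-DKO and 7.26 in HCT116-WT, a difference of 0.71 (SD 1.24). Only its last 3 probe sets were higher by at least 1, among them the one at place 8 with 8.18 in HCT116-DKO and 4.85 in HCT116-WT.

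Genes of other kinds between the members of a cluster did not pass the rule for a change. There were 11 of them, with 0 that rose or fell, beside 2.66% and 0.535% of all genes. Of the 11, 3 were below background in both arrays. Their median difference was 0.03, with a range of -0.35 to 0.72 over the 11. ANO10 on chromosome 3 had the highest difference, with a level of 10.01 in HCT116-DKO and 9.29 in HCT116-WT. All 17 of its probe sets were higher in HCT116-DKO. ANO10 lies in a stretch between ZNF662 and ZNF445 that also holds POMGNT2, SNRK, ABHD5 and TCAIM and no measured zinc finger gene. The zinc finger gene ZKSCAN7, which lies between ZNF445 and ZNF660 and is not on the list, was at 7.25 in HCT116-DKO and 5.97 in HCT116-WT, with 13 of 15 probe sets higher, and stayed just below background. In the chromosome 12 cluster no other gene was measured.

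**Figure D3:**
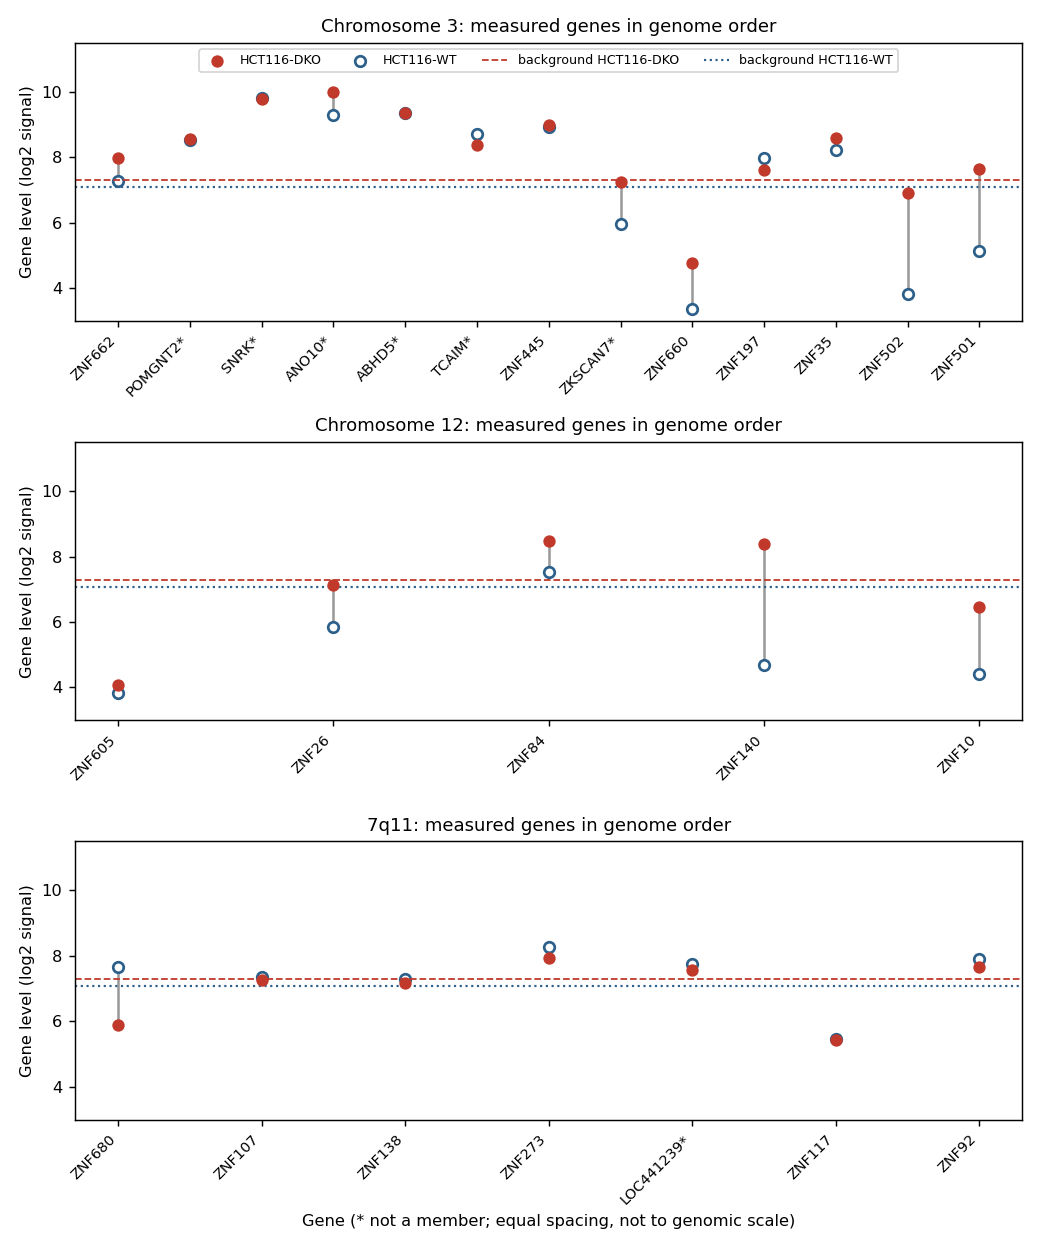
Gene levels (log2 signal, y axis) in HCT116-DKO (filled) and HCT116-WT (open), 1 array each, for the measured genes of 3 clusters in genome order, with asterisks on genes that are not on the list and the background of each array as horizontal lines. On chromosome 3, ZNF501 is higher in HCT116-DKO while ZNF197 and ZNF35 lie close together, and at 7q11 only ZNF680 is far apart.

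At 7q11, ZNF680 fell, and the other 4 genes above background in at least 1 array differed by -0.33 to -0.09. ZNF680, a KRAB zinc finger gene at the edge of the cluster, was at 5.88 in HCT116-DKO and 7.66 in HCT116-WT, a difference of -1.78 (SD 0.47). All 7 probe sets were lower in HCT116-DKO by at least 1, with differences of -2.74 to -1.24. As the gene was below background in HCT116-DKO, the fold is at least 1.29, and with levels set to background the difference was -0.36 and ZNF680 no longer counted as fallen. ZNF273 was at 7.93 in HCT116-DKO and 8.26 in HCT116-WT, and ZNF92 at 7.65 in HCT116-DKO and 7.90 in HCT116-WT. ZNF107 was at 7.28 in HCT116-DKO and 7.37 in HCT116-WT, ZNF138 at 7.18 in HCT116-DKO and 7.31 in HCT116-WT, both next to background. ZNF117 was below background, at 5.43 in HCT116-DKO and 5.47 in HCT116-WT. Of these small differences, those of ZNF107, ZNF138 and ZNF117 turned positive with the median over probe sets (0.03, 0.41 and 0.56), and those of the other 3 genes stayed negative. Genes of this cluster are close paralogs, and whether their probe sets share signal was not tested.

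The clusters at 7q36 and on chromosomes 8 and 16 were expressed in both lines at nearly the same level. Of their 18 measured genes 17 lay above background in both arrays, as did 10782 of all 16253 genes. Of the 18, 0 rose and 0 fell, beside 2.66% and 0.535% of all genes, so these counts do not set the clusters apart. At 7q36, ZNF746, which encodes PARIS, a repressor of the PGC-1α gene and a substrate of parkin, was at 9.10 in HCT116-DKO and 9.16 in HCT116-WT. ZNF777 was at 8.83 in HCT116-DKO and 8.64 in HCT116-WT, and ZNF212 at 8.79 in HCT116-DKO and 8.46 in HCT116-WT, with 8 of 8 probe sets higher. Levels of ZNF282, whose protein was found by its binding to a viral promoter element, and of ZNF783 and ZNF398 were between 8.22 and 8.60 in HCT116-DKO and between 8.10 and 8.76 in HCT116-WT. Only ZNF425 was below background, at 6.49 in HCT116-DKO and 6.77 in HCT116-WT.

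ZNF7 was the brightest of all 40 genes, at 9.30 in HCT116-DKO and 9.21 in HCT116-WT. The other genes of the chromosome 8 cluster, ZNF250, ZNF517, ZNF16 and ZNF34, ranged from 7.87 to 8.70 in HCT116-DKO and from 7.68 to 8.92 in HCT116-WT, with differences of -0.22 to 0.19. On chromosome 16, ZNF205 was at 8.97 in HCT116-DKO and 9.07 in HCT116-WT, and ZNF263, which carries both a SCAN and a KRAB domain, was at 8.16 in each. ZNF174, ZNF200 and ZNF213 differed by -0.03, -0.14 and -0.22. ZNF75A stood apart in this group, at 8.80 in HCT116-DKO and 7.88 in HCT116-WT. Its difference of 0.92 (SD 0.50) missed the threshold although 11 of 11 probe sets were higher, and with the difference of medians over probe sets in place of median polish it was 1.03 and counted as risen.

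Both cluster genes that rose were below background in HCT116-WT. Of the 27 cluster genes above background in HCT116-WT, 0 rose, 1 fell and the median difference was -0.06. Of the 9 that were not, 2 rose, and the other 7 were below background in HCT116-DKO too, so that their differences have no order. Over all genes, 170 of 11405 above background in HCT116-WT rose (1.49%), and 263 of 4848 that were not (5.42%). The level and the difference share the HCT116-WT array, and its part in this split was not tested.

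The cluster genes ZNF502, ZNF10, ZNF660 and ZNF26 met every demand for a rise but that on background. All 4 were below background in both arrays, and with levels set to background each gave 0.22, the gap between the backgrounds, so they are not measured rises. Counting them, 6 of the 36 cluster genes passed (16.7%), beside 3.72% of all genes by the same loosened rule. The loosened share was 41 of 194 (21.1%) for ZNF genes of chromosome 19 and 9 of 185 (4.86%) for ZNF genes of other chromosomes that are not on the list. With the demand, 15 of the 194 rose (7.73%), and 2 of the 185 (1.08%), ZNF32 and ZNF354C. In every group the loosened share also counts genes below background in both arrays, whose differences are not measured, so it is not a share of rises. No test of these shares was run, and the list was drawn up with results of these arrays known.

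In the promoter windows, as printed above for 8 genes, the genes that rose overlapped in CpG number with those that did not pass the rule. The latter include 7 genes that were below background in both arrays and could not be called. A window was found for 34 of the 42 genes, and ZNF7, ZNF16, ZNF34, ZNF250, ZNF251, ZNF517, ZNF746 and ZNF777 had none in the table used. Where a gene had more than 1 window, the first was taken. The 6 genes that rose had 10 to 26 CpG sites with a median of 24.5. The 26 that did not pass the rule had 1 to 40 with a median of 17. The median was 16 over 22199 windows of protein-coding genes. The observed over expected CpG ratio corrects for base content. Its median was 0.988 in the genes that rose, with a range of 0.646 to 1.01. In those that did not pass the rule its median was 0.741, with a range of 0.0911 to 1.19. ZNF783 had 36 sites and a difference of -0.13, ZNF10 had 40 and a difference of 2.05, and ZNF117 had 1. Of these, ZNF10 and ZNF117 were below background in both arrays.

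**Figure D4:**
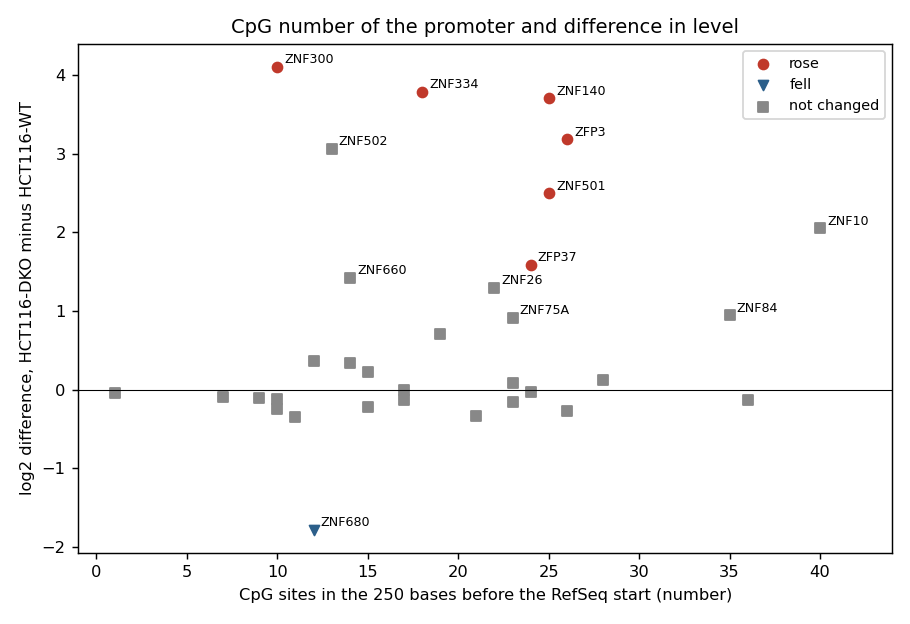
CpG sites in the 250 bases before the RefSeq start (x axis, number) against the log2 difference of HCT116-DKO minus HCT116-WT (y axis) for the measured genes with a promoter window, 1 point per gene. Genes that rose span 10 to 26 sites and overlap with the genes marked not changed. That mark means that the rule was not passed, and it includes genes below background in both arrays.

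Exact matches on both strands to short motifs of CpG-containing factor sites were few in these windows. The CREB/ATF motif TGACGTCA was found in ZNF501, ZNF10 and ZNF200, which is 3 of 34 windows, against 2.01% of the windows of protein-coding genes. The core of the NRF1 motif, GCGCATGCG, occurred in ZNF273, ZNF26 and ZNF84, against 2.05%. The ETS motif CCGGAAGT occurred in ZNF197, ZNF75A, ZNF174 and ZFP3, against 4.41%. The core of the ZBTB33 motif, TCTCGCGA, occurred in 0 of 34, against 1.42%. A match is a string of letters and says nothing of binding in these cells.

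Among the co-repressor genes through which KRAB proteins act, only the targeted DNMT1 and DNMT3B passed the rule for a change. Of 16 genes of this list, 0 rose and 2 fell, beside 2.66% and 0.535% of all genes. As the 2 that fell are the disrupted genes, the share that fell does not describe the other co-repressors. The median difference was -0.19, beside 0.02 over all genes. In this list 11 genes were lower and 5 higher, and 127 of 423 probe sets were higher. These values include DNMT1, with 0 of 50 probe sets higher, and DNMT3B, with 2 of 32. DNMT3A, also on the list, was at 9.02 in HCT116-DKO and 8.61 in HCT116-WT. TRIM28, the scaffold that KRAB domains bind, was at 12.28 in each line. SETDB1, which writes H3K9me3, was at 9.35 in HCT116-DKO and 9.59 in HCT116-WT. The chromatin remodeller CHD3 was at 8.92 in HCT116-DKO and 9.38 in HCT116-WT, and ZNF274, a zinc finger gene of chromosome 19 whose protein recruits SETDB1 to other zinc finger genes, was at 8.72 in HCT116-DKO and 8.23 in HCT116-WT.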

How the data were processed

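Total RNA of 2 samples, 1 from HCT116-DKO and 1 from HCT116-WT, were hybridized to Affymetrix Human Exon arrays. The authors deposited log2 signals, 1 value per probe set and array, which their processing notes ascribe to RMA. The methods name Expression Console and RMA in Partek, and no source used here tells which made these values or which arrays were normalized together. The 287329 probe sets carry no positions. Gene names came from the platform annotation held by GEO, and old symbols were updated through the RefSeq gene table (GRCh38.p14), which left 261481 probe sets with 1 gene, 8947 with several and 16901 with none. Gene levels were computed by median polish in Python 3.11.15 with numpy 2.4.6 and pandas 2.3.3. The procedure was tested on simulated data, with changes planted only in genes well above background in HCT116-WT. The planted changes thus did not cover genes below background in HCT116-WT, as were all zinc finger genes that rose. No test was run on differences, because 1 array per group leaves no replicate error, and the number of arrays limits the precision. The list of genes, the other gene lists and the rules were chosen with earlier results of these data known. Genes named were those that changed, those above background in 1 array only, the extremes and brightest genes of each cluster, the single genes and those nearest the threshold, with DNMT1, DNMT3B, TRIM28 and neighbours that changed. Other genes are named where a count is small, chosen after their values were seen. Motif counts used exact matches. A planned count of zinc fingers per protein was not run, because no protein sequences were used here.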

Additional observations from a re-analysis of the deposited data

Results flagged for a closer look

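Probe sets that the table assigns to several genes entered no gene level. Of the 6 probe sets shared by ZNF10 and ZNF268, neighbours on chromosome 12, all 6 were higher in HCT116-DKO, with differences of 0.66 to 4.55 and a median of 2.23. Probe set 3439394 drew attention as the single probe set among them with a difference of 2 or more and a signal above background, at 7.52 in HCT116-DKO and 2.97 in HCT116-WT, a log2 difference of 4.55. There are no replicates, and which of the genes gave this signal was not tested. The 3 probe sets shared by COMMD5 and ZNF250 differed by -0.13 to 0.46.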

How the results depend on the processing

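The 6 rises rest on how background is set. With the 99th percentile of olfactory receptor genes, 8.69 in HCT116-DKO and 7.79 in HCT116-WT, 0 genes rose and 0 fell, and 8 genes lay above background in HCT116-DKO. With no demand on background 10 rose, and with levels set to background 4 rose and 0 fell. With the median over probe sets 9 rose, and with only probe sets above background, or background at the 90th percentile, 8 rose. ZNF502 and ZNF26 gained the call in 5 of 17 alternatives each. Among cluster genes alone 2 rose. The median difference was 0.25 with the median over probe sets and ranged from 0.01 to 0.25 over the alternatives tried. ZNF140 rose in 16 of 17 alternatives, ZNF300, ZNF334 and ZFP3 in 15 of 16 each, failing at the 99th percentile, ZFP37 in 13 of 16 and ZNF501 in 13 of 17, and ZNF680 fell in 15 of 17. No gene that rose or fell changed sign under any alternative. No paired analysis was possible because there is 1 array per group.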

Other observations

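In some zinc finger genes with near-equal levels, single probe sets had a difference 2 or more away from that of their gene (log2). In all, 18 of 504 probe sets in 10 genes did so, most of them in the genes that rose. In ZNF138 at 7q11, the probe set at place 13 was at 3.87 in HCT116-DKO and 6.34 in HCT116-WT. In ZNF117, the first probe set was at 5.95 in HCT116-DKO and 3.51 in HCT116-WT, and in ZNF398 at 7q36 the probe set at place 17 was at 6.49 in HCT116-DKO and 4.08 in HCT116-WT. These signals lay below background in both arrays and have no order.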
